A study of Mus musculus with 12 samples.

Results

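The transcriptome of T helper 17 (Th17) cells lacking the glucose transporter GLUT3 was compared with that of wild-type Th17 cells in 6 RNA-seq libraries, 3 of each genotype, out of the 12 libraries of the series. Of the 45703 genes in the Th17 table, the 13823 that reached 1 TPM (transcripts per 1000000) in at least 3 of the 6 libraries were tested. GLUT3 is a facilitative transporter with a high affinity for glucose, encoded by Slc2a3. T cells take up more glucose when they are activated, and Th17 cells, which make interleukins 17A and 17F, rely on glycolysis as they expand. Cells of this lineage guard mucosal surfaces and drive several autoimmune diseases.

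Both groups were CD4+ T cells of mice on the C57BL/6 background. The wild-type group carried no stated allele, and the deficient group had the genotype Slc2a3-fl/fl Cd4-cre. In each group naive T cells were stimulated with antibodies to CD3 and CD28 and cytokines that direct Th17 differentiation, and were kept in culture for 3 days. The Cd4-cre transgene acts from the CD4 and CD8 double-positive stage in the thymus, so Slc2a3 is deleted long before activation and in CD8 T cells as well. The labels name no control that carries Cd4-cre alone. The labels give neither age nor sex, and are silent on whether replicates are different animals or different cultures. The p-values therefore reflect the spread among these libraries only, which may be technical. Values of the 3 libraries of a group are given in the order of replicates 1, 2 and 3.

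The libraries held 16936787 to 28324216 reads on genes, and 3 reads on a gene of 1 kilobase were worth 0.190 to 0.437 TPM. Slc2a3 (chromosome 6, 122727809 to 122802363) stood at 379, 109 and 44.6 TPM in wild type against 5.14, 18.8 and 3.31 TPM in GLUT3-deficient libraries, and the groups did not overlap (log2 fold change -3.95 ± 0.85 (SE), adjusted p = 0.0369, and -4.59, adjusted p = 0.00738, without replicate 2). Wild-type replicate 1 was far above the other wild-type libraries, and 5 of the 6 leave-one-out fits described below, all but that without GLUT3-deficient replicate 2, lost the call (highest adjusted p = 0.13). It was also lost with no filter on low values and with a pseudocount of 5 TPM. The floxed exons are not given in the labels, so reads from exons outside them cannot be set apart. Th17 markers were present in every library, and Il17f ranged over 309.6 to 1076 TPM. The T cell receptor constant region Trac ranged over 1144 to 1887 TPM and Cd4 over 60.7 to 335 TPM.

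GLUT3-deficient replicate 2 stood apart from the other libraries of its group. Its median absolute difference from the other deficient libraries was 0.634 on the log2 scale, against 0.229 to 0.428 for each of the other 5 libraries relative to its own group. It departed by more than 1 log2 unit from the mean of deficient replicates 1 and 3 in 4169 genes, 3602 of them upward and 567 downward. Genotype comparisons are therefore given with and without it, and "replicate 2" below means this library unless wild type is named.

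Across the 6 libraries 1009 genes passed the test (limma, Benjamini-Hochberg adjusted p under 0.05), which is 7.3% of the genes tested. Of these 636 (4.6%) were higher and 373 (2.7%) lower in the deficient cells, and 3453 genes had an unadjusted p under 0.05. Without replicate 2, 13321 genes could be tested and 2158 (16.2%) passed, 1034 (7.76%) higher and 1124 (8.44%) lower. The groups did not overlap in 36.7% of genes over 6 libraries and in 52.3% over 5. The median log2 fold change of all genes was 0.04 over 6 libraries and -0.11 without replicate 2.

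Both fits called 858 genes in the same direction (6.44% of those tested in both), 485 higher (3.64%) and 373 lower (2.8%). They share 5 libraries, so this is not independent support. The other 151 genes called over 6 libraries did not reach 1 TPM in any wild-type library, and fell under the filter once only a pair of deficient libraries remained. Of the genes tested 289 were of this kind, tested only because the deficient libraries were high, so a difference in them follows from the filter, and those named below are given by their levels, with no test. They include 6 of the 8 rises in the p200 family described below, 6 of the 18 antiviral rises, 4 of the 9 chemokine rises, 3 of the 9 cytotoxic ones, 2 of the 13 Th1 rises, 2 of the 7 TNF ligand rises, 1 of the 12 GTPase rises and 1 of the 5 inhibitory ones. Genes at 1 TPM in only some wild-type libraries also needed the deficient libraries to be tested, and were not counted apart. They include Ubd, Hlx, Arrdc4, Ifi211 and Wdfy1, whose tests, also in the leave-one-out fits below, are therefore not independent of the filter. Genes under 1 TPM in every deficient library were likewise tested only through wild type, so their falls follow from the filter too. They stay in the test without replicate 2, because all 3 wild-type libraries remain. Cd5l and Acvrl1 are of that kind and are given by their levels, and such falls were not counted apart. In a fit without replicate 2 on the same 13823 genes, chosen after the data were seen, all 1009 passed. When each of the 6 libraries was left out in turn on these 13823 genes, 139 of the 1009 genes passed every time, 118 higher and 21 lower. Of these, 36 were under 1 TPM in all wild-type libraries. A gene that passed every time is said below to have passed in all 6 leave-one-out fits, and the highest adjusted p of those 6 fits is given for many of the genes that did not. Counts by list given for the other single libraries left out come from fits with the filter applied anew. In these, 109 to 444 of 13405 to 13519 genes tested passed when any library but replicate 2 was left out, the fewest without GLUT3-deficient replicate 1. Each count by list below is to be set beside the shares of all genes tested. These were 4.6% higher and 2.7% lower over 6 libraries, and 7.76% and 8.44% without replicate 2.

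**Figure D1:**
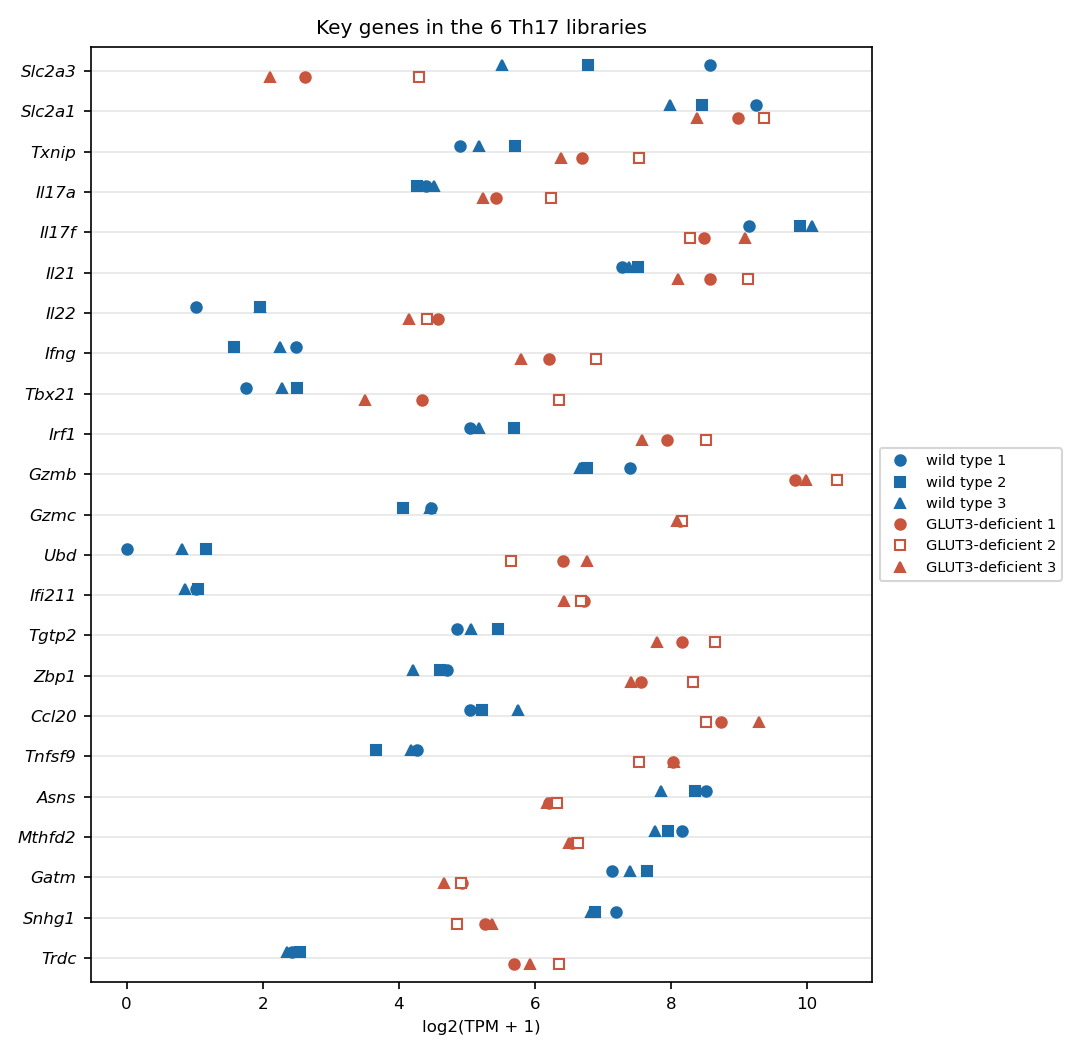
Expression of 23 genes in each of the 6 Th17 libraries, as log2(TPM + 1) on the horizontal axis, with wild type in blue and GLUT3-deficient in red. The open square is GLUT3-deficient replicate 2. Interferon and cytotoxic genes such as Ifng, Gzmb and Ubd lie to the right in every deficient library, Asns and Gatm lie to the left, and the points of Slc2a1 overlap.

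The signature cytokine genes of Th17 cells did not move together. Il17f stood at 568, 958 and 1076 TPM in wild type against 356, 309.6 and 545 TPM in GLUT3-deficient libraries, lower in every deficient library, but it did not pass (log2 fold change -1.09 ± 0.32 (SE), adjusted p = 0.0885, and -0.92, adjusted p = 0.0763, without replicate 2, and adjusted p = 0.0361 with the replicate number as a block). Il17a, encoding the partner cytokine interleukin 17A, was higher in every deficient library, at 20.1, 18.3 and 22 TPM in wild type against 42.1, 74.3 and 36.8 TPM in GLUT3-deficient libraries. It passed without replicate 2 and with the block, but not over 6 libraries (log2 fold change 1.24 ± 0.3 (SE), adjusted p = 0.0528, and 0.94, adjusted p = 0.0175, without replicate 2, and adjusted p = 0.0428 with the block). The 2 cytokines thus lay on opposite sides of wild type in every library, although neither difference passed over the 6 libraries.

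The other products of the lineage that passed were higher. Il22, which encodes a cytokine acting on epithelial cells, rose from low levels, at 1.03, 2.87 and 2.88 TPM in wild type against 22.8, 20.4 and 16.7 TPM in GLUT3-deficient libraries (log2 fold change 2.74 ± 0.34 (SE), adjusted p = 0.00694, and 2.72, adjusted p = 0.00283, without replicate 2), and passed in all 6 leave-one-out fits. Ccl20, the ligand that draws CCR6-bearing cells, stood at 32.2, 36.2 and 53.2 TPM in wild type against 423, 366 and 629 TPM in GLUT3-deficient libraries (log2 fold change 3.51 ± 0.28 (SE), adjusted p = 0.00154, and 3.67, adjusted p = 0.000425, without replicate 2) and also passed in all 6. Il21 rose less, from 155, 182 and 167 to 379.7, 563 and 273 TPM (log2 fold change 1.21 ± 0.28 (SE), adjusted p = 0.0454, and 0.94, adjusted p = 0.0193, without replicate 2), and its highest adjusted p in the leave-one-out fits was 0.165. Of the 8 cytokine genes listed for Th17 cells, 3 passed upward and 0 downward, and 5 and 0 without replicate 2, where Il17a and Il9 joined. With the block 5 passed upward and Il17f downward. Il9 was variable in wild type (11.6, 25.5 and 64.3 TPM) with 150.1, 71.6 and 145 TPM in deficient libraries (adjusted p = 0.0856, 0.0277 without replicate 2 and 0.0277 with the block). Il10, at 56.4, 57.5 and 56.9 TPM in wild type and 45.5, 47.5 and 56.5 TPM in the deficient cells, and Csf2, at 1.75 to 5.79 TPM, did not pass in either fit.

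Of 14 transcription factors of the Th17 program 0 passed over the 6 libraries. Without replicate 2 Maf passed upward and Ahr downward. Maf, which encodes a factor that activates Il10 and Il21, stood at 12.9, 7.09 and 5.96 TPM in wild type against 20.2, 19.5 and 24.4 TPM in GLUT3-deficient libraries (log2 fold change 1.27 ± 0.32 (SE), adjusted p = 0.0591, and 1.33, adjusted p = 0.0266, without replicate 2). Ahr, the aryl hydrocarbon receptor, stood at 14.9, 28.8 and 21.1 TPM in wild type against 6.74, 30.9 and 7.53 TPM in GLUT3-deficient libraries, with replicate 2 above every wild-type library (log2 fold change -0.77 ± 0.57 (SE), adjusted p = 0.438, and -1.43, adjusted p = 0.0152, without replicate 2). Rora was lower in all deficient libraries (3.33, 3.53 and 3.37 TPM against 6.75, 6.42 and 4.8 TPM) and passed in neither fit (adjusted p = 0.156 and 0.0709). Of 18 receptors and surface genes of these cells, 3 fell and 0 rose: Acvrl1, Cd5l and Il17re. Without replicate 2 these 3 fell and 2 rose, Il6st and Tgfbr1, which encode receptor chains for interleukin 6 and TGF-beta, and with the block 1 rose. Cd5l, a lipid-regulating scavenger protein described in Th17 cells, stood at 4.0, 7.46 and 10.2 TPM in wild type against 0.686, 0.786 and 0.436 TPM in GLUT3-deficient libraries. Cd5l and Acvrl1 entered the test only through the wild-type libraries, so their falls follow from the filter and no test is given. Il17re, the receptor for interleukin 17C, stood at 3.18, 5.09 and 3.57 TPM in wild type against 0.385, 1.6 and 0.495 TPM in GLUT3-deficient libraries (log2 fold change -1.48 ± 0.31 (SE), adjusted p = 0.0353, and -1.76, adjusted p = 0.00349, without replicate 2). The groups were separate for Cd5l and Il17re. The highest adjusted p of Il17re in the leave-one-out fits was 0.146, and without replicate 2 it too entered the test only through wild type. The receptor Il23r and the chemokine receptor Ccr6 passed in neither fit, at log2 fold changes of -0.49 ± 0.3 and -0.3 ± 0.21 over 6 libraries and -0.65 and -0.3 without replicate 2.

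Some genes of other T cells and of other blood cells were higher in the same deficient libraries, and are given before the groups described next. Of 7 tested gamma delta T cell genes, 6 rose over 6 libraries and 0 fell, and the same 6 rose without replicate 2 (6 tested). Of these, 5 passed in all 6 leave-one-out fits. Trdc, the constant region of the delta chain, stood at 4.4, 4.85 and 4.13 TPM in wild type against 50.8, 81.2 and 59.9 TPM in GLUT3-deficient libraries (log2 fold change 3.55 ± 0.26 (SE), adjusted p = 0.0013, and 3.36, adjusted p = 0.000197, without replicate 2). The gamma chain segment Trgv2 stood at 2.4, 2.55 and 5.39 TPM in wild type against 35, 57.8 and 48.2 TPM in GLUT3-deficient libraries (log2 fold change 3.47 ± 0.35 (SE), adjusted p = 0.00321, and 3.31, adjusted p = 0.00115, without replicate 2). Summed over its 9 listed genes, this group lay at 29.6 to 33.2 TPM in wild type and 224 to 339 TPM in the deficient libraries. The transcription factor Sox13 and the kinase Blk of this list were under the filter, at 0.0163 to 0.263 TPM and 0.127 to 1.29 TPM.

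Markers of CD8 T cells and natural killer cells summed to 52.2 to 71 TPM and 97.4 to 109.8 TPM. Klrk1 (NKG2D) stood at 1.88, 1.95 and 2.04 TPM in wild type against 11.5, 13.2 and 9.99 TPM in GLUT3-deficient libraries and Klrc1 at 11.4, 7.47 and 8.36 TPM in wild type against 23.9, 34 and 23.9 TPM in GLUT3-deficient libraries, and these 2 of 6 tested markers rose. Without replicate 2 Klrd1 and Klre1 joined them. Cd8a ranged over 0.867 to 1.58 TPM. Ncr1, which defines natural killer cells, ranged over 0 to 0.0599 TPM in wild type and 0.936 to 1.37 TPM in the deficient libraries, under the filter. Of 6 tested myeloid markers, 3 rose: Tyrobp, Fcer1g and Lyz2, also without replicate 2 (5 tested). The macrophage marker Adgre1 was at 0 to 0.0232 TPM, and the myeloid sum was 458 to 507 TPM against 412 to 595 TPM. Mast cell and basophil markers summed to 1.33 to 2.76 TPM and 12.7 to 90.3 TPM, highest in replicate 2, with Fcer1a at 0.363, 0.433 and 0.153 and 8.2, 34.5 and 3.94 TPM. Red cell and platelet markers summed to 9.26 to 17.5 TPM and 46.2 to 115 TPM, and B cell markers to 114 to 153 TPM and 132 to 198 TPM. Markers of CD4 alpha beta T cells were abundant in both groups, at 6985 to 8325 TPM and 8596 to 10190 TPM. In bulk samples a change in the share of a cell type and a change in its RNA per cell cannot be told apart, and the part of other cells in the results that follow was not tested. Of the marker genes named here, Klrk1, Klrc1, Tyrobp, Fcer1g and Lyz2 lost their calls in at least 1 leave-one-out fit (highest adjusted p 0.0502 to 0.137). Klrk1, Klrc1, Tyrobp, Fcer1g and Lyz2 had log2 fold changes of 2.08 ± 0.24, 1.49 ± 0.27, 2.02 ± 0.24, 2.08 ± 0.29 and 2.08 ± 0.42 over 6 libraries and 1.99, 1.32, 1.92, 2.02 and 1.73 without replicate 2 (adjusted p = 0.00586, 0.0231, 0.00657, 0.00984 and 0.0318, and 0.00128, 0.00949, 0.00216, 0.00367 and 0.0119).

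**Figure D2:**
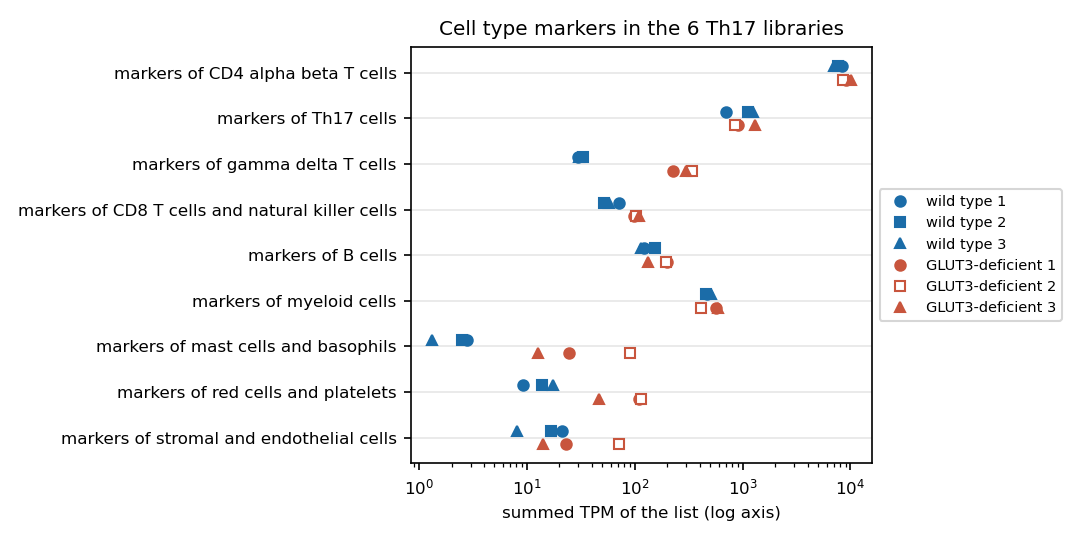
Summed TPM of 9 lists of cell type markers in each library, on a log axis, with wild type in blue, GLUT3-deficient in red and replicate 2 of the latter as an open square. The gamma delta, mast cell and red cell lists separate the genotypes in every library. So do the CD8 and natural killer list and, narrowly, the CD4 alpha beta list (6985 to 8325 and 8596 to 10190 TPM). The points of the Th17, myeloid, B cell and stromal lists overlap.

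Ifng, which encodes interferon gamma, the cytokine of Th1 cells, was among the 12 largest rises. Levels of Ifng were 4.64, 1.99 and 3.77 TPM in wild type against 73.2, 119 and 54.7 TPM in deficient libraries (log2 fold change 4.2 ± 0.38 (SE), adjusted p = 0.00211, and 3.9, adjusted p = 0.000513, without replicate 2), with every deficient library far above every wild-type library. Of 24 tested genes of the Th1 program 13 rose and 0 fell, and 12 of 19 rose without replicate 2. The count was 5 to 7 with another library left out. Their median log2 fold change was 1.78, and 1.68 without replicate 2. The first median includes 5 genes under 1 TPM in all wild-type libraries, and the median of the same 24 genes without replicate 2 was 1.51. Of the 13, 5 passed in all 6 leave-one-out fits, namely Ifng, Gzmb, Ccl4, Nkg7 and Ccl3. Gzmb and Nkg7 are counted again in the cytotoxic list below, and Ccl4 and Ccl3 in the chemokine list, so these counts are not separate results. Tbx21, encoding the Th1-defining factor T-bet, was higher in each deficient library, at 2.38, 4.66 and 3.88 TPM in wild type against 19.2, 81.2 and 10.3 TPM in GLUT3-deficient libraries, with replicate 2 far above the others. It passed without replicate 2 and with the block, not over 6 libraries (log2 fold change 2.55 ± 0.69 (SE), adjusted p = 0.0714, and 1.74, adjusted p = 0.0123, without replicate 2, and adjusted p = 0.019 with the block). Hlx, a homeobox factor that cooperates with T-bet, rose (1.0, 0.748 and 0.403 against 9.82, 28.3 and 9.18 TPM, log2 fold change 3.12 ± 0.44 (SE), adjusted p = 0.0112, and 2.63, adjusted p = 0.000619, without replicate 2, highest adjusted p = 0.0654 in the leave-one-out fits). Gata3, the Th2-defining factor, stood at 4.79, 3.12 and 2.49 and 6.94, 13.9 and 6.48 TPM and passed in neither fit, and Foxp3 of regulatory T cells ranged over 3.45 to 11.5 TPM with overlapping groups.

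Genes that interferons induce were higher in the deficient libraries across several families. Of 9 tested interferon regulatory factors, Irf1, Irf7 and Irf9 rose, and without replicate 2 Irf2 as well. Irf1, which interferon gamma induces, stood at 32.1, 50.5 and 35.3 TPM in wild type against 244, 367 and 191 TPM in GLUT3-deficient libraries (log2 fold change 2.71 ± 0.3 (SE), adjusted p = 0.00498, and 2.45, adjusted p = 0.00128, without replicate 2) and passed in all 6 leave-one-out fits. Irf7 stood at 8.08, 2.82 and 1.38 TPM in wild type against 39.5, 80.8 and 23.8 TPM in GLUT3-deficient libraries and Irf9, a DNA-binding subunit of the complex that type I interferon activates, at 31.4, 23.8 and 18.7 TPM in wild type against 94.4, 128 and 70.1 TPM in GLUT3-deficient libraries, with highest adjusted p-values of 0.102 and 0.0743 when a library was left out. The log2 fold changes of Irf7 and Irf9 were 3.32 ± 0.6 and 1.93 ± 0.3 over 6 libraries and 2.86 and 1.71 without replicate 2 (adjusted p = 0.0224 and 0.0142, and 0.0108 and 0.00624). Irf8 fell without replicate 2. Its levels were 126, 62.9 and 49.7 TPM in wild type against 25.7, 70.1 and 19.1 TPM in deficient libraries, with replicate 2 inside the wild-type range (log2 fold change -1.14 ± 0.54, adjusted p = 0.234, and -1.68, adjusted p = 0.0223, without it).

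Of 34 tested antiviral genes 18 rose and 0 fell (17 of 26 without replicate 2), with a median log2 fold change of 1.71, and 1.32 without replicate 2. The first median includes 8 genes under 1 TPM in all wild-type libraries, tested only through the deficient ones. On the same 34 genes the median without replicate 2 was also 1.32. The number that rose was 3 to 10 with another library left out, the fewest without GLUT3-deficient replicate 1 or wild-type replicate 2. Usp18, the protease that removes ISG15 and restrains interferon receptors, stood at 7.61, 2.77 and 2.13 TPM in wild type against 76.5, 122 and 50.5 TPM in GLUT3-deficient libraries (log2 fold change 4.08 ± 0.48 (SE), adjusted p = 0.00586, and 3.76, adjusted p = 0.00216, without replicate 2). Zbp1, a sensor of Z-form nucleic acid, stood at 25.1, 23.3 and 17.5 TPM in wild type against 189, 320.3 and 169.6 TPM in GLUT3-deficient libraries (log2 fold change 3.26 ± 0.29 (SE), adjusted p = 0.00211, and 2.98, adjusted p = 0.000388, without replicate 2). Isg20, an exonuclease, rose from 6.22, 4.2 and 2.91 to 44.3, 28.7 and 37.9 TPM (log2 fold change 2.83 ± 0.32 (SE), adjusted p = 0.00538, and 2.99, adjusted p = 0.00102, without replicate 2), and these 3 genes passed in all 6 leave-one-out fits. Not every member moved: Bst2, which tethers virions, overlapped between genotypes (155, 156 and 215 and 156, 205 and 165 TPM). Oas3 was far higher in replicate 2 than in any other library, at 2.42, 53.4 and 1.55 TPM against 0.819, 0.491 and 0.256 TPM in wild type.

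Of the 18 interferon-induced GTPases of the Gbp and Irg families, all tested, 12 rose and 0 fell over 6 libraries, and 16 of the 17 that could be tested rose without replicate 2. With the block 17 rose, and with another library left out 3 to 11, the fewest without GLUT3-deficient replicate 1 or wild-type replicate 3. Iigp1, under 1 TPM in wild type, stood at 0.166, 0.506 and 0.557 TPM in wild type against 51.6, 100.3 and 35.7 TPM in GLUT3-deficient libraries. Tgtp2 stood at 28, 42.9 and 32.5 TPM in wild type against 285, 399.9 and 222 TPM in GLUT3-deficient libraries and Tgtp1 at 30.6, 49.1 and 40.5 TPM in wild type against 287, 399 and 223 TPM in GLUT3-deficient libraries and the log2 fold changes of Tgtp2 and Tgtp1 were 3.08 ± 0.28 and 2.87 ± 0.28 over 6 libraries and 2.85 and 2.65 without replicate 2 (adjusted p = 0.00211 and 0.00304, and 0.000571 and 0.000841). Both passed in all 6 leave-one-out fits. Tgtp1 and Tgtp2 are near-identical copies, as are several Gbp genes, so the split of reads between copies is uncertain. The abundant member Gbp2 went from 356, 741 and 545 to 1788, 2640 and 1438 TPM (log2 fold change 1.85 ± 0.34 (SE), adjusted p = 0.0224, and 1.61, adjusted p = 0.0116, without replicate 2, highest adjusted p = 0.097 in the leave-one-out fits).

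Members of the p200 family, a cluster of interferon-inducible DNA-binding proteins on chromosome 1, were low in wild type and higher in every deficient library when summed. Summed over 13 genes they lay at 3.98 to 5.44 TPM in wild type and 179 to 252 TPM in the deficient libraries. Ifi211 stood at 1.02, 1.07 and 0.817 TPM in wild type against 105, 101 and 84.9 TPM in GLUT3-deficient libraries (log2 fold change 5.63 ± 0.23 (SE), adjusted p = 0.00051, and 5.6, adjusted p = 5.59e-05, without replicate 2). Ifi205 stood at 0.29, 0.388 and 0.39 TPM in wild type against 36.6, 43 and 30.1 TPM in GLUT3-deficient libraries and Ifi204 at 0.382, 0.183 and 0.193 TPM in wild type against 31.4, 33.7 and 23.5 TPM in GLUT3-deficient libraries. Of 10 tested members 8 rose, but 7 of the 10 were under 1 TPM in all wild-type libraries and entered the test only through the deficient libraries. Ifi211 and Aim2, at 1 TPM in only some wild-type libraries, needed the deficient libraries too. Without replicate 2, 3 members could be tested and 2 rose, Ifi209 and Ifi211. Replicate 2 lay close to the other deficient libraries for Ifi211, Ifi204 and Ifi205. The tested members that did not pass were Aim2, the inflammasome sensor, at 0.988, 0.884 and 1.38 and 1.23, 2.66 and 1.82 TPM, and Ifi206, which stood at 0.578, 0.978 and 0.398 and 4.99, 16.8 and 2.92 TPM. Ifi202b was listed at 0 in all 6 libraries. Because these genes are close paralogs, values of single members are uncertain.

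Genes of antigen presentation by MHC class I rose as well, 12 of 22 tested, and 0 fell, and 18 and 0 without replicate 2. With another library left out 1 to 10 rose, the fewest without GLUT3-deficient replicate 1 or wild-type replicate 3. Ubd, which encodes the ubiquitin-like modifier FAT10, stood at 0, 1.24 and 0.755 TPM in wild type against 84.6, 49.1 and 108 TPM in GLUT3-deficient libraries (log2 fold change 5.62 ± 0.42 (SE), adjusted p = 0.00144, and 5.94, adjusted p = 0.000197, without replicate 2), and was the only one of the 12 to pass in all 6 leave-one-out fits. Ubd reached 1 TPM in only 1 wild-type library, so it entered these fits through the deficient libraries, and passing them adds no separate support. The class I heavy chains H2-K1 and H2-D1, at 1128 to 1405 TPM and 2263 to 2937 TPM in wild type, rose to 2680 to 3383 TPM and 5602 to 7605 TPM. Their light chain B2m went from 3728, 2424 and 2428 to 9945, 6423 and 9364 TPM, and the immunoproteasome subunits Psmb9 and Psmb10 rose too. The log2 fold changes of H2-K1, H2-D1, B2m, Psmb9 and Psmb10 were 1.32 ± 0.2, 1.38 ± 0.22, 1.59 ± 0.28, 1.25 ± 0.19 and 1.49 ± 0.21 over 6 libraries and 1.27, 1.28, 1.78, 1.37 and 1.62 without replicate 2 (adjusted p = 0.013, 0.015, 0.0205, 0.0132 and 0.0113, and 0.00512, 0.00512, 0.00304, 0.00287 and 0.00285). For these 5 genes the highest adjusted p when a library was left out was 0.0649 to 0.115.

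Promoters of 3 members of the antiviral, GTPase, class I and regulatory factor lists are shown. They had the smallest adjusted p among members that passed in both fits and had a promoter found. Members without one, Zbp1 among them, were not eligible, nor were those on a chromosome left out of the choice. The window runs from 250 bases before to 50 bases after the RefSeq start on GRCm38.p6, read in the direction of the gene. Capitals mark matches, on either strand, to a core of the interferon-stimulated response element (GAAANNGAA), bound by IRF proteins, or to a gamma-activated site (TTCNNNGAA), an element of genes that interferon gamma induces.
Ubd, chr17:37193642-37193941, plus strand, follows.
Ubd: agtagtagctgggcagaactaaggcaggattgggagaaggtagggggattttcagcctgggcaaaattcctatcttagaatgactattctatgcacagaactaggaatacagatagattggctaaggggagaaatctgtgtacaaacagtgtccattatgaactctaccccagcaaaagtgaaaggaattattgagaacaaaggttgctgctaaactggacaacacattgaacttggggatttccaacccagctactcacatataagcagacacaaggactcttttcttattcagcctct
Tgtp2, chr11:49064163-49064462, minus strand, follows.
Tgtp2: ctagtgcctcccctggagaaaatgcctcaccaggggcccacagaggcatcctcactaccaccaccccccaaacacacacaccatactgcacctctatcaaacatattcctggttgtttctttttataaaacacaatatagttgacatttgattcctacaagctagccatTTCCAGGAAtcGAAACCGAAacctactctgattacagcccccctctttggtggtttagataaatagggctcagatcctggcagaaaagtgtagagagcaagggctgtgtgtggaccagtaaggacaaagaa
Tgtp1, chr11:48992197-48992496, minus strand, follows.
Tgtp1: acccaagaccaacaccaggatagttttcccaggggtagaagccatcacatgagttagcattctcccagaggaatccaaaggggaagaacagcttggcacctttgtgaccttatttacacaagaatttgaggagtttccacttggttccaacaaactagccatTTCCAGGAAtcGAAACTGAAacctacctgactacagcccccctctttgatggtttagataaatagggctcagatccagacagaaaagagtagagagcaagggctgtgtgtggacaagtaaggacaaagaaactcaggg
Tgtp2 and Tgtp1 each hold a TTCCAGGAA match that begins 81 and 88 bases before the start. Tgtp2 has GAAACCGAA beginning 70 bases before the start, and Tgtp1 has GAAACTGAA beginning 77 bases before it. The Ubd window holds no match to either. Taking the first promoter listed for each gene, 29 of the 61 promoters found for the 83 tested genes of the antiviral, GTPase, class I and regulatory factor lists held GAAANNGAA (47.5%). The share was 7.45% of the 9102 promoters found for all genes tested, taken the same way, and 8.57% of all 27025 promoters in the table. For TTCNNNGAA these 3 shares were 27.9%, 6.99% and 8.47%. All 10 GTPase promoters found held GAAANNGAA and 6 of the 10 held TTCNNNGAA. The lists hold genes of interferon-related families whether or not they rose, so these shares have no bearing on the rises. A match describes the sequence only.

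**Figure D3:**
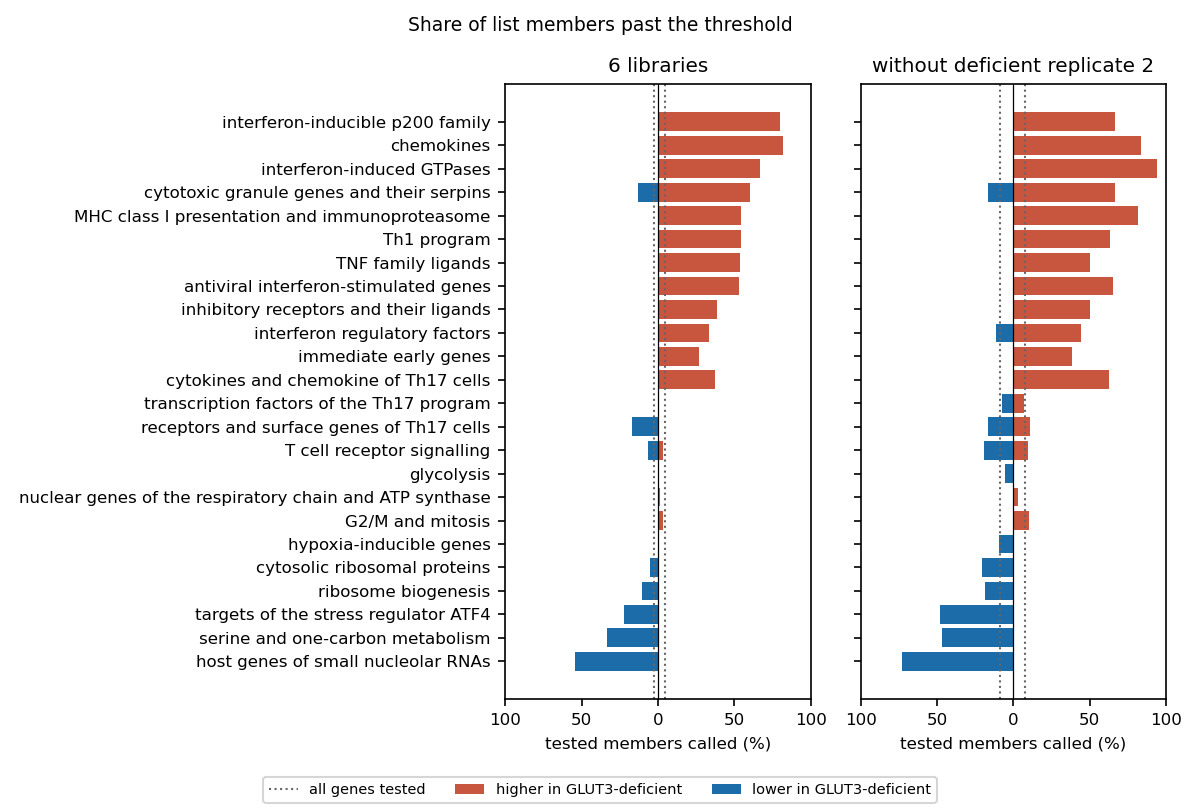
Percent of the tested members of 24 gene lists that passed upward (red, to the right) or downward (blue, to the left) over 6 libraries and without GLUT3-deficient replicate 2, with dotted lines at the share of all genes tested. With 6 libraries, interferon, chemokine and cytotoxic lists extend to the right of the line at 4.6%, and lists of small nucleolar RNA hosts, serine metabolism and ATF4 targets extend to the left of the line at 2.7%. The 6-library bars include rises that follow from the filter, in members under 1 TPM in all wild-type libraries. Among these are 6 of 8 p200, 6 of 18 antiviral, 4 of 9 chemokine and 3 of 9 cytotoxic rises.

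Genes of cytotoxic granules were higher too, in the libraries that also held more gamma delta and natural killer cell markers. Of 15 tested genes 9 rose and 2 fell, and 8 rose and 2 fell of 12 without replicate 2. Leaving out another library gave 4 to 6 rises and 1 fall. Gzmb, the protease granzyme B, stood at 168, 108 and 101 TPM in wild type against 904, 1386 and 1014 TPM in GLUT3-deficient libraries (log2 fold change 3.14 ± 0.27 (SE), adjusted p = 0.00174, and 2.96, adjusted p = 0.000571, without replicate 2). Gzmc stood at 21.3, 15.7 and 21 TPM in wild type against 279, 284 and 272 TPM in GLUT3-deficient libraries, close together in the deficient libraries (log2 fold change 3.79 ± 0.2 (SE), adjusted p = 0.000711, and 3.78, adjusted p = 0.000163, without replicate 2). Gzmd was listed at 0 in all wild-type libraries and reached 3.24, 2.12 and 2.25 TPM in the deficient ones. Gzma rose from 7.33, 6.59 and 4.11 to 28.1, 33 and 41.7 TPM and the granule membrane protein Nkg7 from 28.5, 24 and 19.2 to 117, 208 and 146 TPM. Gzma and Nkg7 had log2 fold changes of 2.35 ± 0.29 and 2.64 ± 0.27 over 6 libraries and 2.36 and 2.42 without replicate 2 (adjusted p = 0.00734 and 0.00378, and 0.00282 and 0.000958). Gzmb, Gzmc, Gzma and Nkg7 passed in all 6 leave-one-out fits. Serpinb1a, an inhibitor of granule proteases that is linked to Th17 cells, fell from 80.6, 93.4 and 58 to 8.88, 10.7 and 11.3 TPM (log2 fold change -2.77 ± 0.25 (SE), adjusted p = 0.00222, and -2.8, adjusted p = 0.000766, without replicate 2) and passed in all 6 as well. The granzymes of the Gzmb cluster are close relatives, so single values of the low members are uncertain.

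Of 11 tested chemokine genes 9 rose and 0 fell, and 5 of 6 rose without replicate 2. Leaving out another library gave 3 to 7. Beside Ccl20, Ccl4 stood at 36.2, 29.9 and 36 TPM in wild type against 271, 270.4 and 284 TPM in GLUT3-deficient libraries (log2 fold change 2.98 ± 0.18 (SE), adjusted p = 0.000711, and 2.99, adjusted p = 0.000197, without replicate 2) and Ccl3 at 7.58, 5.54 and 3.78 TPM in wild type against 48.5, 77.4 and 35.4 TPM in GLUT3-deficient libraries (log2 fold change 3.01 ± 0.37 (SE), adjusted p = 0.00657, and 2.72, adjusted p = 0.00172, without replicate 2). Both passed in all 6 leave-one-out fits, and Ccl5, which attracts effector T cells, did not (highest adjusted p = 0.0819). Cxcl10, an interferon-induced ligand of CXCR3, rose from 26.9, 21.1 and 29.3 to 67.1, 107 and 54.4 TPM (highest adjusted p = 0.138). The log2 fold changes of Ccl5 and Cxcl10 were 1.96 ± 0.31 and 1.48 ± 0.3 over 6 libraries and 2.06 and 1.21 without replicate 2 (adjusted p = 0.015 and 0.0301, and 0.00571 and 0.0108).

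Of 13 tested ligands of the TNF family 7 rose and 0 fell, 2 of the 7 being under 1 TPM in all wild-type libraries. Without replicate 2, 5 of 10 rose, and with another library left out 2 to 5. Tnfsf9 (4-1BB ligand) stood at 18.3, 11.6 and 17.2 TPM in wild type against 261, 184 and 264 TPM in GLUT3-deficient libraries (log2 fold change 3.83 ± 0.26 (SE), adjusted p = 0.00109, and 4.0, adjusted p = 0.000197, without replicate 2) and Tnfsf8 (CD30 ligand) at 25, 34.2 and 23.7 TPM in wild type against 180.0, 179 and 128 TPM in GLUT3-deficient libraries (log2 fold change 2.51 ± 0.24 (SE), adjusted p = 0.00267, and 2.43, adjusted p = 0.00128, without replicate 2), and both passed in all 6 leave-one-out fits. Tnf itself, Ltb and Cd40lg had overlapping groups, and their adjusted p was 0.305, 0.827 and 0.808 over 6 libraries and 0.329, 0.189 and 0.205 without replicate 2. Among the receptors, the decoy receptor Tnfrsf11b (osteoprotegerin) was at 0.73, 0.285 and 0.335 TPM in wild type and 23.6, 27.1 and 18 TPM in the deficient libraries, while Cd27 fell from 69.1, 54.3 and 40.6 to 23.5, 23.8 and 24.1 TPM (log2 fold change -1.13 ± 0.25 (SE), adjusted p = 0.0379, and -1.13, adjusted p = 0.0209, without replicate 2, highest 0.163 when a library was left out).

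Among inhibitory receptors and ligands 5 of 13 rose, and 5 of 10 without replicate 2. With another library left out 1 to 3 rose. Pdcd1lg2, the second ligand of PD-1, stood at 2.11, 1.28 and 1.38 TPM in wild type against 13.8, 13 and 12.8 TPM in GLUT3-deficient libraries (log2 fold change 2.47 ± 0.25 (SE), adjusted p = 0.00342, and 2.48, adjusted p = 0.000771, without replicate 2) and passed in all 6 leave-one-out fits. The first ligand, Cd274, rose from 3.87, 2.63 and 1.67 to 13.3, 31.6 and 7.83 TPM (log2 fold change 2.15 ± 0.51 (SE), adjusted p = 0.049, and 1.64, adjusted p = 0.0144, without replicate 2, highest 0.188 when a library was left out). Pdcd1 itself, at 37.1, 38 and 35.5 and 59.8, 78.8 and 58.4 TPM, passed without replicate 2 (adjusted p = 0.038) and not over 6 libraries (adjusted p = 0.0599). Ctla4 overlapped between groups at 1030 to 2161 TPM. Lag3 stood at 3.58, 5.02 and 2.72 TPM in wild type against 3.08, 23.4 and 4.12 TPM in GLUT3-deficient libraries, high in replicate 2 alone.

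Immediate early genes, which answer receptor signals and also the handling of cells, rose in 7 of 26 cases and fell in 0. Without replicate 2, 10 of 26 rose, and with another library left out 4 to 8. Fos stood at 11.2, 11.1 and 7.94 TPM in wild type against 72.8, 68.3 and 70.4 TPM in GLUT3-deficient libraries (log2 fold change 2.7 ± 0.22 (SE), adjusted p = 0.00155, and 2.72, adjusted p = 0.000564, without replicate 2). The antiproliferative gene Btg2 stood at 32.5, 23.6 and 22.6 TPM in wild type against 182, 155 and 199 TPM in GLUT3-deficient libraries (log2 fold change 2.73 ± 0.22 (SE), adjusted p = 0.00154, and 2.83, adjusted p = 0.000466, without replicate 2) and the phosphatase Dusp2 at 192, 149 and 146 TPM in wild type against 984, 754 and 836 TPM in GLUT3-deficient libraries (log2 fold change 2.4 ± 0.2 (SE), adjusted p = 0.00161, and 2.49, adjusted p = 0.000513, without replicate 2). Each of the 3 passed in all 6 leave-one-out fits, and deficient replicate 2 lay near the other deficient libraries. Junb, the most abundant member, overlapped between groups (799.8, 975 and 836 and 1164, 1442 and 962 TPM).

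Genes of glucose metabolism are set beside the shares of all genes tested, of which 7.3% passed over 6 libraries and 16.2% without replicate 2. Of 20 tested glycolytic genes 0 passed in either direction over 6 libraries, and 1 fell without replicate 2 (19 tested), Eno1, which stood at 7861, 7386 and 6065 TPM in wild type against 4844, 4355 and 4451 TPM in GLUT3-deficient libraries (log2 fold change -0.64 ± 0.21 (SE), adjusted p = 0.113, and -0.6, adjusted p = 0.0489, without replicate 2). The median log2 fold change was -0.31 over 6 libraries and -0.36 without replicate 2. Ldha, lactate dehydrogenase A, was lower in every deficient library (4604, 4480 and 4111 against 3205, 3162 and 3004 TPM) and passed in neither fit (adjusted p = 0.151 and 0.0584). Slc2a1, encoding GLUT1, the other main glucose transporter of T cells, overlapped between groups at 609, 349 and 252 and 504, 659.7 and 334 TPM (log2 fold change 0.35 ± 0.38 (SE), adjusted p = 0.607, and 0.12, adjusted p = 0.848, without replicate 2). Its relative Slc2a6 rose from 17.9, 34.8 and 32.1 to 67.4, 89.7 and 56.9 TPM (log2 fold change 1.33 ± 0.31 (SE), adjusted p = 0.0489, and 1.16, adjusted p = 0.0347, without replicate 2). Txnip, a glucose-responsive inhibitor of glucose uptake, rose from 28.8, 51.2 and 35.2 to 102, 184 and 82.5 TPM (log2 fold change 1.61 ± 0.35 (SE), adjusted p = 0.0399, and 1.28, adjusted p = 0.0179, without replicate 2), as did its relative Arrdc4, from 1.06, 0.565 and 0.358 to 1.98, 3.2 and 2.18 TPM (log2 fold change 1.06 ± 0.25 (SE), adjusted p = 0.0489, and 0.91, adjusted p = 0.033, without replicate 2). The calls of Slc2a6, Txnip and Arrdc4 did not survive all leave-one-out fits (highest adjusted p 0.141 to 0.194), and none of the 3 passed when no filter on low values was applied.

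Acly, which makes cytosolic acetyl-CoA from citrate, overlapped between groups, with replicate 2 far above the others (84.5, 158 and 95.9 and 113, 453 and 63.4 TPM). Its log2 fold change was 0.44 ± 0.68 over 6 libraries and -0.36 without replicate 2 (adjusted p = 0.72 and 0.486). Among 14 genes of acetyl-CoA supply and histone acetylation only the acetyltransferase Kat2b passed over 6 libraries, rising from 3.12, 2.77 and 1.95 to 12.2, 22.7 and 13.6 TPM (log2 fold change 2.21 ± 0.32 (SE), adjusted p = 0.0118, and 1.96, adjusted p = 0.00229, without replicate 2, highest adjusted p = 0.0685). Without replicate 2 the acetyl-CoA synthetase Acss1 also passed, downward. Of 72 nuclear genes of the respiratory chain 1 rose, the complex I subunit Ndufb11, at 240.2, 238 and 278 and 1078, 517 and 1200 TPM (log2 fold change 1.79 ± 0.33 (SE), adjusted p = 0.0225, and 2.17, adjusted p = 0.000513, without replicate 2, highest adjusted p = 0.107), and without replicate 2 Uqcrfs1 of complex III rose as well. Of all genes tested 4.6% rose over 6 libraries and 7.76% without replicate 2. In fatty acid oxidation, Acadm, medium-chain acyl-CoA dehydrogenase, stood at 55.8, 69.2 and 58 TPM in wild type against 229.8, 199.8 and 214 TPM in GLUT3-deficient libraries (log2 fold change 1.8 ± 0.18 (SE), adjusted p = 0.00329, and 1.85, adjusted p = 0.00128, without replicate 2) and passed in all 6 leave-one-out fits, while Eci2, an enoyl-CoA isomerase, fell from 92.7, 86.5 and 81.3 to 44.2, 38 and 44.6 TPM (log2 fold change -1.02 ± 0.18 (SE), adjusted p = 0.022, and -0.95, adjusted p = 0.0116, without replicate 2, highest 0.12 when a library was left out). The other 16 tested genes of that pathway did not pass over 6 libraries, and Acads and Acaa2 fell without replicate 2.

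A part of the genes of amino acid supply fell. Serine is made from a glycolytic intermediate and feeds one-carbon units to nucleotide synthesis, and the transcription factor ATF4 induces both this pathway and amino acid importers. Of 15 genes in the serine and one-carbon list, all tested, 5 fell and 0 rose, and 7 fell without replicate 2. Of 27 ATF4 targets, some of them shared with the former list, 6 fell and 0 rose, and 13 fell and 0 rose without replicate 2. With another library left out 0 to 2 serine genes and 1 to 3 ATF4 targets fell, 0 and 1 of them without GLUT3-deficient replicate 1 and also without wild-type replicate 2. Asns, asparagine synthetase, stood at 364, 325 and 230.2 TPM in wild type against 72.7, 79.3 and 71.1 TPM in GLUT3-deficient libraries (log2 fold change -2.0 ± 0.22 (SE), adjusted p = 0.00489, and -2.05, adjusted p = 0.00198, without replicate 2) and passed in all 6 leave-one-out fits. Mthfd2, the mitochondrial folate enzyme, stood at 285, 247 and 217 TPM in wild type against 92.4, 97.9 and 89.5 TPM in GLUT3-deficient libraries (log2 fold change -1.4 ± 0.18 (SE), adjusted p = 0.00799, and -1.44, adjusted p = 0.00346, without replicate 2). Phgdh, which commits carbon to serine synthesis, stood at 479, 714 and 568 TPM in wild type against 211, 267 and 184 TPM in GLUT3-deficient libraries (log2 fold change -1.4 ± 0.23 (SE), adjusted p = 0.0165, and -1.55, adjusted p = 0.00434, without replicate 2). Shmt2, Psat1, Psph, Cth and Trib3 fell as well. Shmt2, Psat1, Psph, Cth and Trib3 had log2 fold changes of -1.28 ± 0.28, -0.97 ± 0.21, -1.03 ± 0.21, -1.53 ± 0.3 and -2.0 ± 0.43 over 6 libraries and -1.51, -1.08, -0.89, -1.41 and -2.12 without replicate 2 (adjusted p = 0.0369, 0.0378, 0.033, 0.0277 and 0.0386, and 0.00563, 0.0115, 0.0187, 0.0154 and 0.019). Leaving out single libraries ended the calls of these 7 genes (highest adjusted p 0.0562 to 0.169). Gatm, the first enzyme of creatine synthesis, fell further, at 140.2, 199.8 and 168 TPM in wild type against 29.3, 29.1 and 24.3 TPM in GLUT3-deficient libraries (log2 fold change -2.56 ± 0.21 (SE), adjusted p = 0.00155, and -2.6, adjusted p = 0.000571, without replicate 2), and passed in all 6. By contrast Tyms, which uses one-carbon units to make thymidylate, overlapped between groups.

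The promoters of Asns and Mthfd2, the 2 members with the smallest adjusted p that passed in both fits, are shown in the same window, with capitals for matches to the ATF4 element (TGATGNAA), the interferon element or the gamma-activated site.
Asns, chr6:7693160-7693459, minus strand, follows.
Asns: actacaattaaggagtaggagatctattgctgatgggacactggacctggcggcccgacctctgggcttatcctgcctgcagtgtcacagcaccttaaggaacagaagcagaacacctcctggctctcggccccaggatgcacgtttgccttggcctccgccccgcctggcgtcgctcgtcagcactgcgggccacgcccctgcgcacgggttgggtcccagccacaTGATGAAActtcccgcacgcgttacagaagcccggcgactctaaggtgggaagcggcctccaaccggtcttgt
Mthfd2, chr6:83317555-83317854, minus strand, follows.
Mthfd2: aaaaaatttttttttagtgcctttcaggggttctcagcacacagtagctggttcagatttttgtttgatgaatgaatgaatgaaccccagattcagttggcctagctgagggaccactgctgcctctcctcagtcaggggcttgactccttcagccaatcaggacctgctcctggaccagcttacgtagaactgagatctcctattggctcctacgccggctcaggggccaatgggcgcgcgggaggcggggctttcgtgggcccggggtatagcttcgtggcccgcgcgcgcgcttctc
The Asns window has TGATGAAA beginning 23 bases before the start, and the Mthfd2 window holds no match. Of 31 promoters found for the 39 tested genes of both lists, 8 held TGATGNAA (25.8%), against 2.34% of the promoters of all genes tested and 4.06% of all promoters in the table. By list, the element was in 8 of 22 promoters of ATF4 targets (36.4%) and in 0 of 12 of the serine list. The ATF4 list holds targets of that factor whether or not they fell, so its share has no bearing on the falls. A match describes the sequence only.

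Messages of the translation machinery were lower in the deficient libraries, more so in replicate 2. The 78 cytosolic ribosomal protein genes summed to 82610 to 102500 TPM in wild type and 35960 to 68850 TPM in the deficient libraries, lowest in replicate 2. Their median log2 fold change was -0.79, and -0.46 without replicate 2. Of all genes tested 2.7% fell over 6 libraries and 8.44% without replicate 2. Of the ribosomal protein genes 4 fell (Rpl3, Rps15a, Rps2 and Rpl14) and 0 rose over 6 libraries. Without replicate 2 the count was 16, with the block 10, after median-of-ratios scaling 0, with voom on recovered reads 1 and with another library left out 0. Rpl3 stood at 2910, 2465 and 2362 TPM in wild type against 1335, 927 and 1325 TPM in GLUT3-deficient libraries (log2 fold change -1.12 ± 0.22 (SE), adjusted p = 0.029, and -0.95, adjusted p = 0.00954, without replicate 2, highest adjusted p = 0.128). Rps15a, Rps2 and Rpl14 had log2 fold changes of -1.34 ± 0.28, -1.12 ± 0.24 and -1.17 ± 0.26 over 6 libraries and -1.07, -0.92 and -0.92 without replicate 2 (adjusted p = 0.0348, 0.0386 and 0.0399, and 0.0115, 0.0151 and 0.0116). Many of these genes have processed pseudogenes that can take part of their reads.

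Host genes of small nucleolar RNAs, spliced transcripts whose introns hold the guides of ribosomal RNA modification, fell in 6 of 11 tested cases, and in 8 of 11 without replicate 2. With the block 9 fell, and with another library left out 1 to 3. Their median log2 fold change was -1.59, and -1.23 without replicate 2. Snhg1 stood at 145, 118 and 112 TPM in wild type against 37.5, 27.8 and 40.3 TPM in GLUT3-deficient libraries (log2 fold change -1.81 ± 0.22 (SE), adjusted p = 0.00691, and -1.65, adjusted p = 0.00233, without replicate 2) and Snhg4 at 14.1, 17.7 and 16.9 TPM in wild type against 2.23, 2.53 and 1.32 TPM in GLUT3-deficient libraries (log2 fold change -2.53 ± 0.28 (SE), adjusted p = 0.00484, and -2.65, adjusted p = 0.000717, without replicate 2), and both passed in all 6 leave-one-out fits. Gas5 went from 688, 466 and 512 to 184, 91.1 and 195 TPM (log2 fold change -1.87 ± 0.33 (SE), adjusted p = 0.0205, and -1.52, adjusted p = 0.00436, without replicate 2, highest adjusted p = 0.0889). Of 39 ribosome biogenesis genes 4 fell and 0 rose, and 7 of 38 fell without replicate 2. With another library left out the count was 0 to 6, with 6 falls without wild-type replicate 1 and 0 without each of the others. Npm1, nucleophosmin, went from 922, 688 and 768 to 343, 316 and 371 TPM (log2 fold change -1.2 ± 0.19 (SE), adjusted p = 0.0147, and -1.14, adjusted p = 0.00747, without replicate 2, highest adjusted p = 0.0781). Myc, which drives this program, was lower in replicates 1 and 3 only, at 235, 265 and 202 and 137, 303 and 126 TPM. It passed without replicate 2 (log2 fold change -0.82, adjusted p = 0.0241) and not over 6 libraries (adjusted p = 0.49).

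In T cell receptor signalling 1 of 31 genes rose (Cd28) and 2 fell (Lat and Ubash3a) over 6 libraries, and 3 rose and 6 fell without replicate 2. Of all genes tested 4.6% rose and 2.7% fell over 6 libraries, and 7.76% and 8.44% without replicate 2. Ubash3a, which restrains receptor signalling, stood at 22.4, 23.4 and 18.8 TPM in wild type against 5.14, 10.4 and 3.57 TPM in GLUT3-deficient libraries (log2 fold change -1.71 ± 0.37 (SE), adjusted p = 0.0388, and -2.08, adjusted p = 0.00182, without replicate 2). Lcp2, which encodes the adaptor SLP-76, differed among the deficient libraries. Its levels were 211, 235 and 196 TPM in wild type against 15, 192 and 28.6 TPM in deficient ones, so replicates 1 and 3 lay below 30 TPM and replicate 2 just under the wild-type range. The log2 fold change was -2.25 ± 0.82 over 6 libraries (adjusted p = 0.148, and 0.0426 with the block) and -3.3 without replicate 2 (adjusted p = 0.000571). Lat, the membrane adaptor that recruits SLP-76, went from 287, 308 and 246 to 111, 152 and 132 TPM (log2 fold change -1.09 ± 0.2 (SE), adjusted p = 0.0224, and -1.2, adjusted p = 0.0067, without replicate 2). Cd28, the costimulatory receptor, went from 329, 264 and 263 to 581, 583 and 662 TPM (log2 fold change 1.09 ± 0.18 (SE), adjusted p = 0.017, and 1.12, adjusted p = 0.00756, without replicate 2). Lck and Cd3d had overlapping groups. The calls of Lat, Ubash3a and Cd28 were each lost in at least 1 leave-one-out fit (highest adjusted p 0.104 to 0.122 for Lat and Cd28). With another library left out 0 to 1 gene of this list rose and 0 fell.

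Cell cycle genes are set beside the shares of all genes tested, of which 4.6% rose over 6 libraries and 7.76% without replicate 2. Of 30 genes of G2 and mitosis 1 rose, Anln, which encodes the cleavage-furrow protein anillin (4.05, 7.77 and 6.16 against 32.5, 76 and 27 TPM, log2 fold change 2.61 ± 0.43 (SE), adjusted p = 0.0172, and 2.17, adjusted p = 0.00322, without replicate 2). Mki67 stood at 13.7, 29.1 and 21.3 and 34.8, 56.9 and 45.3 TPM (adjusted p = 0.0946, 0.0792 without replicate 2 and 0.0338 with the block), and wild-type replicate 1 was the lowest library for Mki67, Top2a and Cdc20. Over the 30 genes the log2 fold change had a median of 0.7, and 0.58 without replicate 2, where Cenpf and Prc1 joined Anln. With the block 5 of them passed. Of 6 tested inhibitors of cyclin-dependent kinases, Cdkn2b, under 1 TPM in wild type, was at 0.403, 0.706 and 0 TPM there and 6.96, 5.43 and 4.65 TPM in the deficient libraries. Cdkn2c rose from 11.2, 29.1 and 21.3 to 73.8, 88.3 and 70.5 TPM (log2 fold change 1.96 ± 0.35 (SE), adjusted p = 0.0208, and 1.86, adjusted p = 0.0131, without replicate 2). Cdkn1a (p21) stood at 427, 194 and 206 TPM in wild type against 763, 364 and 719.7 TPM in GLUT3-deficient libraries and Cdkn1b (p27) at 41.2, 22.3 and 21.6 TPM in wild type against 67.5, 20.5 and 74.4 TPM in GLUT3-deficient libraries, with replicate 2 inside the wild-type range for Cdkn1a and just below it for Cdkn1b. They passed without replicate 2 (adjusted p = 0.0208 and 0.0206) and not over 6 libraries (adjusted p = 0.127 and 0.392), and Cdkn1a passed with the block (adjusted p = 0.0301). Highest adjusted p in the leave-one-out fits was 0.0817 for Anln and 0.0878 for Cdkn2c.

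Hypoxia-inducible genes were highest in a single wild-type library. The 23 genes summed to 9480 TPM in wild-type replicate 1, to 3032 and 4192 TPM in the other wild-type libraries and to 3276 to 4621 TPM in the deficient libraries. Ndrg1 stood at 1114, 330.0 and 168 TPM in wild type against 165, 130.4 and 124 TPM in GLUT3-deficient libraries and Hilpda, which coats lipid droplets, at 797, 198 and 141 TPM in wild type against 102, 44.5 and 63.6 TPM in GLUT3-deficient libraries. None of the 23 passed over 6 libraries, Ankrd37 and Pdk1 fell without replicate 2 (22 tested), and 4 fell with the block. Hilpda was one of these (adjusted p = 0.0111, against 0.101 without the block and 0.0956 without replicate 2). Hif1a, the inducible subunit of the hypoxia factor, stood at 338, 318 and 202 and 463, 1069 and 304 TPM with overlapping groups. Slc2a3, Acvrl1 and Wdr54 were likewise highest in wild-type replicate 1, and Slc2a3 and Wdr54 were called lower. Wdr54 had a log2 fold change of -2.85 ± 0.61 over 6 libraries and -2.3 without replicate 2 (adjusted p = 0.0369, and 0.0158). Acvrl1, which encodes the receptor kinase ALK1, stood at 141, 27.9 and 16.4 TPM in wild type against 0.553, 0.577 and 0.318 TPM in GLUT3-deficient libraries. It entered the test only through the wild-type libraries and is given by its levels, with no test.

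Several of the largest changes fell outside these groups. Ccn3, a secreted matricellular protein, stood at 3.22, 3.82 and 3.96 TPM in wild type against 95.9, 73.4 and 70.6 TPM in GLUT3-deficient libraries (log2 fold change 4.11 ± 0.24 (SE), adjusted p = 0.000711, and 4.16, adjusted p = 0.000163, without replicate 2). Mgll, monoglyceride lipase, stood at 18.3, 18.7 and 19.5 TPM in wild type against 284, 205 and 308 TPM in GLUT3-deficient libraries (log2 fold change 3.73 ± 0.22 (SE), adjusted p = 0.000711, and 3.9, adjusted p = 0.000116, without replicate 2). Gstt1, a glutathione transferase, stood at 15, 15.2 and 10.3 TPM in wild type against 254, 144 and 278 TPM in GLUT3-deficient libraries (log2 fold change 3.93 ± 0.31 (SE), adjusted p = 0.00153, and 4.22, adjusted p = 0.000163, without replicate 2). Every deficient library was far above every wild-type library for each of these 3. Wdfy1, an endosomal adaptor, went from 1.38, 1.09 and 0.834 to 25.6, 32.5 and 21.5 TPM and the gap junction gene Gja5 from 1.56, 2.0 and 1.95 to 27, 53 and 28.4 TPM. The log2 fold changes of Wdfy1 and Gja5 were 3.7 ± 0.27 and 3.65 ± 0.33 over 6 libraries and 3.55 and 3.34 without replicate 2 (adjusted p = 0.00138 and 0.00211, and 0.000197 and 0.000197). Among the falls, Ramp1, a subunit of the receptor for calcitonin gene-related peptide, stood at 27.1, 16.4 and 17.1 TPM in wild type against 1.38, 0.568 and 1.21 TPM in GLUT3-deficient libraries (log2 fold change -3.36 ± 0.31 (SE), adjusted p = 0.00255, and -3.17, adjusted p = 0.000571, without replicate 2). Krt83, a hair keratin, went from 32.3, 18.1 and 15.4 to 1.94, 0.911 and 1.77 TPM and Cd24a, a surface glycoprotein, from 38.5, 47.6 and 54 to 7.18, 6.74 and 5.94 TPM. Krt83 and Cd24a had log2 fold changes of -3.13 ± 0.36 and -2.64 ± 0.24 over 6 libraries and -2.93 and -2.65 without replicate 2 (adjusted p = 0.00557 and 0.00211, and 0.00175 and 0.000585). These 8 genes passed in all 6 leave-one-out fits. Lbp, the lipopolysaccharide-binding protein, went from 23.6, 82.2 and 83.4 to 3.32, 3.81 and 3.95 TPM, and Timd2 from 18.3, 31.2 and 40.1 to 4.97, 2.02 and 2.04 TPM. Their calls were lost without wild-type replicate 2 or 3 (highest adjusted p 0.058 to 0.0626). The log2 fold changes of Lbp and Timd2 were -3.57 ± 0.49 and -2.95 ± 0.41 over 6 libraries and -3.59 and -2.79 without replicate 2 (adjusted p = 0.00984 and 0.0101, and 0.00499 and 0.00472).

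The genes in which GLUT3-deficient replicate 2 alone stood apart are described with no test, since it is 1 library. Furin, the protease that matures TGF-beta, was at 11.3, 403 and 9.43 TPM in deficient libraries and at 11.7, 11.2 and 10.3 TPM in wild type. Tgfb1, its substrate, was at 7.96, 205 and 7.44 and 8.77, 9.41 and 7.74 TPM, and Ddb1, a subunit of a ubiquitin ligase, at 20.4, 409 and 14.4 and 13.9, 24.3 and 18.6 TPM. In these 3 genes the other 5 libraries lay close together, whatever their genotype. Cd4 stood at 79.6, 335 and 68 TPM in deficient libraries and 72.7, 88.8 and 60.7 TPM in wild type, and Slc16a3, the lactate exporter, at 35, 378 and 28.6 and 38.1, 36.1 and 25.1 TPM.

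Downward, the mitochondrial ribosomal RNA mt-Rnr1 was at 670.4, 61.1 and 769 TPM against 952, 673 and 798 TPM in wild type, and mt-Rnr1 and mt-Rnr2 together took 0.0372% of the reads of replicate 2 and 0.184% to 0.29% of those of the other libraries. The replication-dependent histone genes H1f4 and H2ac8, whose messages carry no poly(A) tail, were below wild type in replicate 2. H1f4 stood at 355, 261 and 359 TPM in wild type against 712, 80.1 and 929 TPM in GLUT3-deficient libraries and H2ac8 at 186, 215 and 248 TPM in wild type against 469.8, 73.1 and 634 TPM in GLUT3-deficient libraries. Without replicate 2 both passed upward (log2 fold changes 1.34 and 1.34, adjusted p = 0.0073 and 0.00671), and over 6 libraries neither did (adjusted p = 0.897 and 0.785). Replicate 2 lay below wild type for both, and replicates 1 and 3 above it.

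**Figure D4:**
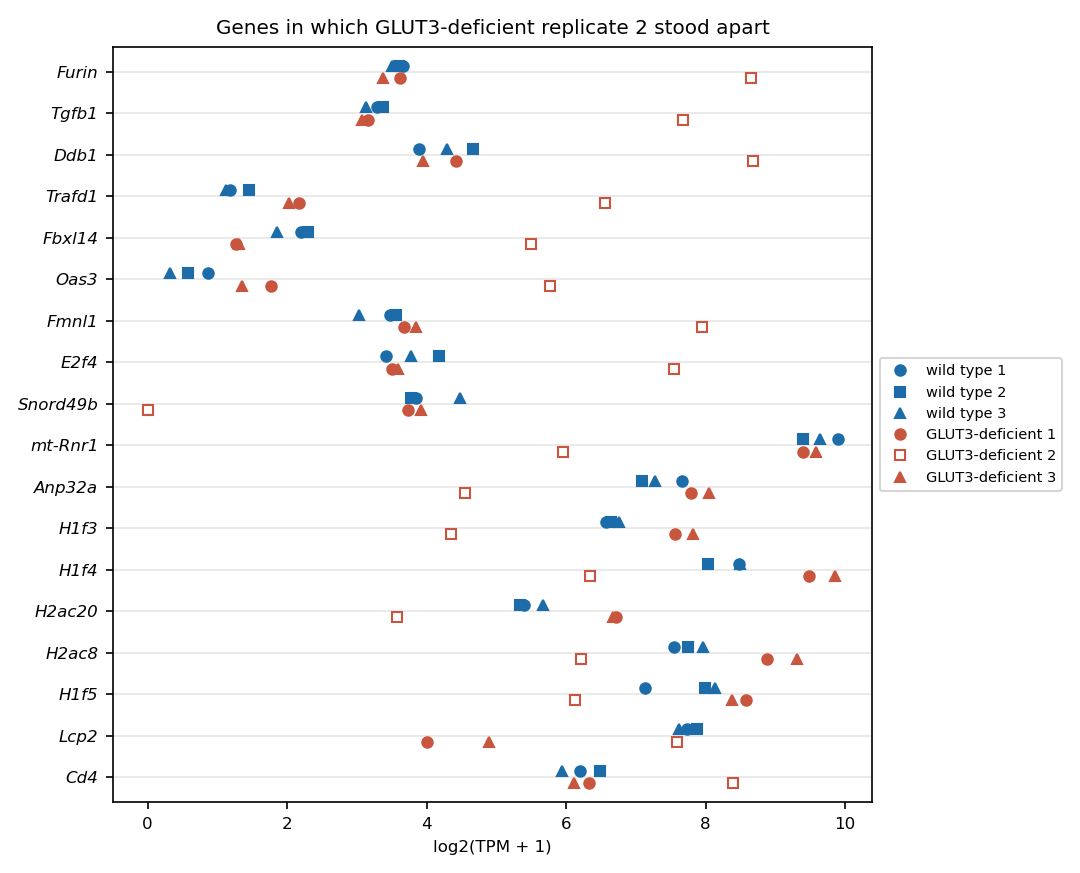
Expression of 18 genes in each library as log2(TPM + 1): the 8 largest upward and 8 largest downward departures of GLUT3-deficient replicate 2 (open square), with Lcp2 and Cd4 added. For Furin and Tgfb1 the other 5 libraries cluster together, and for Lcp2 replicate 2 lies beside wild type while replicates 1 and 3 lie far to the left.

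Over all genes tested, the departure of replicate 2 was higher in bins of longer genes. The tested genes were split by combined exon length into 5 bins of equal size. In the shortest bin (12 to 1061 bases) its median difference from the mean of deficient replicates 1 and 3 was -0.58 on the log2 scale, and in the longest bin (5253 to 51130 bases) it was 1.04. The other libraries ranged from -0.60 to 0.40 over the bins against the rest of their groups, of which replicate 2 is a member for deficient replicates 1 and 3. The genotype comparison moved with length in the same way over 6 libraries, with medians of -0.26 in the shortest and 0.43 in the longest bin, and without replicate 2 these were -0.14 and 0.03. Lists of short genes went both ways: the ribosomal protein genes have a median exon length of 808 bases and departed by -0.98 in replicate 2, and the small nucleolar RNA hosts (620 bases) by -0.79, while the gamma delta markers (503 bases) departed by 0.48, the red cell markers (609 bases) by 0.69 and the chemokines (1018 bases) by 0.29. The T cell receptor signalling list (4202 bases) departed by 1.11 and the antiviral list (3003 bases) by 0.93. Whether length had a part in any single result was not tested.

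**Figure D5:**
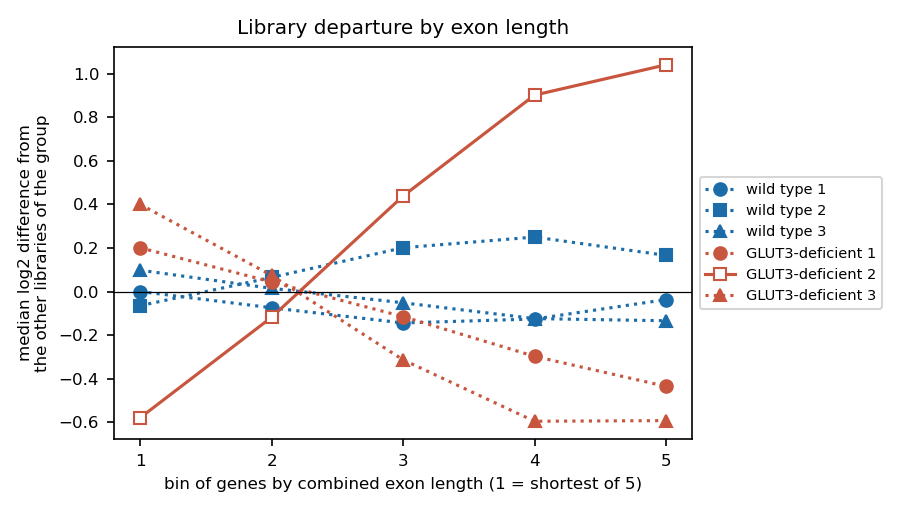
Median log2 difference of each library from the other libraries of its group, in 5 bins of the tested genes ordered by combined exon length. GLUT3-deficient replicate 2 (open squares, solid line) goes from -0.58 in the shortest bin to 1.04 in the longest, and the wild-type libraries (blue) stay between -0.14 and 0.25.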

How the data were processed

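RNA had been extracted from CD4+ T cells, amplified from 5 ng with a SMART-Seq kit, fragmented with Nextera XT and read from 1 end over 75 bases, per the labels' protocols. Such libraries keep no strand, so reads of overlapping genes cannot be told apart. The authors deposited TPM values per gene, with decimal commas, and each column sums to 1000000. Per the submitters' processing notes the tools included STAR 2.7.2b, featureCounts 1.6.4 and DESeq2 1.24.0 on GRCm38.p6, with no role given for each.

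TPM times the deposited exon length gave whole reads for 100.0% of values (within 0.02 reads), which supplied the depths. The genes that reached 1 TPM in 3 libraries entered limma 3.58.1 (R 4.3.3), fitted to log2(TPM + 1) (mean-variance trend, two-sided, Benjamini-Hochberg over all genes tested), and fold changes on this scale understate low genes. The fit was run on simulated reads with the same dispersion for all genes, no library that stood apart and no trend with length. That run therefore does not cover the departure of GLUT3-deficient replicate 2. Tables were joined in Python 3.11.15 with pandas 2.3.3. Alternatives were leaving out each library, a replicate block, pseudocounts of 0.5 and 5 TPM, no filter, a filter of 5 TPM, median-of-ratios scaling and limma voom on the recovered reads. Deviations from the group means of same-numbered libraries correlated at 0.142, 0.427 and 0.242. Those of differently numbered libraries correlated at -0.434 to 0.107, so values above 0.1 were not confined to same numbers. The value of 0.427 joined wild-type replicate 2 and GLUT3-deficient replicate 2. Both had higher medians in the longest than in the shortest exon bin (-0.07 and 0.17, and -0.58 and 1.04). The labels state no pairing, and whether the block reflects one was not tested. Calls and counts in the text come from the fit without the block unless the block is named.

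The members of 60 gene lists and the comparison itself were chosen with earlier results of these data known, so lists are described by counts with no test. Of 1150 list entries, 13 mitochondrially encoded genes did not match and are not analysed here. The text names key genes, the 12 largest rises and falls called in both fits (mean of at least 5 TPM, groups apart), all members of lists of up to 15 genes, otherwise the 8 members with the smallest adjusted p and the 3 with the highest level, and the 8 largest departures of replicate 2 each way. Members that make up a count of 5 or fewer are also named, chosen after their values were seen. Some genes under this rule are not reported here. Promoters came from RefSeq (GRCm38.p6). The Th1 libraries were not used here. Intervals are given as SE, and depth limits cover counting error only.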

Additional observations from a re-analysis of the deposited data

How the results depend on the processing

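The number of genes called depended on which library was left out. Against 1009 over 6 libraries, it ranged from 109 (without GLUT3-deficient replicate 1) to 2158 (without GLUT3-deficient replicate 2) with the filter applied anew, with 86 to 1034 higher and 15 to 1124 lower. On the 13823 genes of the 6-library filter it ranged from 164 (without wild-type replicate 2) to 2446 (without GLUT3-deficient replicate 2), with 132 to 1289 higher and 22 to 1157 lower. Blocking on replicate number gave 1399 genes, 895 higher and 504 lower. The other alternatives gave 739 to 1277 genes, and without a filter on low TPM 248 were lower.

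Counts by list with single libraries left out are given above. Without a filter, where 25230 genes were tested, antiviral rises went from 18 to 11 (10 with a pseudocount of 5 TPM), Th1 from 13 to 8, GTPases from 12 to 8, inhibitory genes from 5 to 1, serine genes from 5 to 2 falls, ATF4 targets from 6 to 3 and small nucleolar RNA hosts from 6 to 2. Of the genes named, Acly, Bst2, Cd40lg, Ddb1, Furin, H1f4, H2ac8, Lag3, Ltb, Slc16a3, Tgfb1 and Trac, 0 of which passed over 6 libraries, changed sign in some fits. Over the leave-one-out fits their log2 fold changes ran from -0.359 to 1.05 for Acly, -0.113 to 0.158 for Bst2, -0.442 to 0.0326 for Cd40lg, -0.103 to 2.26 for Ddb1, -0.0901 to 2.55 for Furin, -0.423 to 1.34 for H1f4, -0.208 to 1.34 for H2ac8, -0.0343 to 1.26 for Lag3, -0.497 to 0.064 for Ltb, -0.04 to 1.8 for Slc16a3, -0.145 to 2.16 for Tgfb1, -0.151 to 0.17 for Trac, and were -0.0446 for Bst2 with median-of-ratios scaling and -0.0448 for Bst2 with voom on recovered reads. The cause was not tested. With the block Ifi206, Ankrd37, Tgfbr1, Cenpf, Prc1 and Top2a passed too, and it changed no call of the other genes named beyond those given above. Low genes are limited by depth, since 3 reads on 1 kilobase were worth up to 0.437 TPM.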
